A study of Homo sapiens with 9 samples.

Results

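Human H69 cholangiocytes were examined for 10 genes whose products are best known from hepatocytes, most of them secreted into plasma. The 10 genes, APOB, MTTP, CPS1, SERPINA1, FGA, FGB, FGG, SAA1, SAA2 and HNF4A, were taken by name from the 61541 gene identifiers of the deposited tables, and they were selected on the size of their counts and on their differences between groups, as known from earlier results of these same libraries. Their levels and differences are therefore described, and no support is drawn from them. H69 is a single immortalized line of human bile duct epithelium, so cells of other donors were not sampled. Its RNA was sequenced in 9 libraries after selection of polyadenylated RNA. Ctrl cells (3 libraries) received the DMSO vehicle, Acetazolamide cells (3 libraries) received 10 µM of acetazolamide, a carbonic anhydrase inhibitor, and Laminin511-E8 cells (3 libraries) received laminin 511-E8, the integrin-binding fragment of a basement membrane protein, at 0.25 µg per cm2. All cells were grown for 48 h before a treatment of 48 h. Total counts ran from 12529867 to 39518899 per library.

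Hepatocytes export most plasma proteins, and the genes described here represent different branches of that work. APOB is the structural protein of very low density lipoproteins and MTTP loads it with lipid in the endoplasmic reticulum. CPS1 is a mitochondrial enzyme, not a secreted one, and opens the urea cycle. SERPINA1 encodes alpha-1-antitrypsin, the main plasma inhibitor of neutrophil elastase. FGA, FGB and FGG encode the 3 chains of fibrinogen, which are assembled in equal numbers before secretion. SAA1 and SAA2 encode acute-phase serum amyloid A proteins, which hepatocytes make in large amounts under IL-6 and IL-1. HNF4A is a nuclear receptor that many hepatocyte genes depend on. Cholangiocytes, by contrast, line the bile ducts and are recognised by cytokeratins such as KRT19 and by the adhesion molecule EPCAM.

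The bile duct markers used by the study, KRT19 and EPCAM, were well counted, and its hepatocyte markers ALB and ASGR1 were near 0. KRT19 reached 811 ± 161 (SD, n = 3) TPM (transcripts per 1000000, that is counts divided by the length of all annotated exons and scaled to that total in each library) in Ctrl libraries, and EPCAM reached 118 ± 11.8 TPM. Of 18 cholangiocyte markers, 10 had at least 10 counts in every library, and 4 had no count in any library. The 18 together made up 3188 to 3883 CPM (counts per 1000000 of the library total) in Ctrl libraries. In Acetazolamide libraries they made up 3234 to 3985 CPM, and in Laminin511-E8 libraries 2771 to 3177 CPM. Of 24 hepatocyte markers, 2 passed that limit, namely the amino acid enzymes HPD (2.96 ± 0.27 CPM in Ctrl) and HAL (1.14 ± 0.30 CPM), while 10 markers had no count in any library. The hepatocyte markers together made up 3.91 to 5.00 CPM in Ctrl, 5.37 to 7.58 CPM in Acetazolamide and 4.38 to 5.32 CPM in Laminin511-E8 libraries. ALB, encoding albumin, had 1 count in all 9 libraries together. ASGR1, a hepatocyte receptor subunit that takes up glycoproteins, had 20 counts in all. A count of 0 allows up to 3 counts in a library, which is 0.0759 to 0.239 CPM, and covers counting error only.

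Serum amyloid A stood highest among the 10 genes and HNF4A and MTTP lowest. In Ctrl libraries, SAA1 averaged 36.0 ± 18.2 TPM (SD, n = 3) and SAA2 33.8 ± 2.53 TPM, and their ranges overlapped. APOB followed at 16.9 ± 2.30 TPM, below every SAA2 value, and its range met that of SERPINA1 at 14.5 ± 3.11 TPM and that of FGG at 12.99 ± 2.24 TPM. CPS1 came next at 7.14 ± 1.28 TPM, below each of these. FGB at 1.16 ± 0.32 TPM and FGA at 0.679 ± 0.251 TPM lay lower again and overlapped each other. HNF4A at 0.0722 ± 0.0650 TPM and MTTP at 0.0494 ± 0.0493 TPM stood at the bottom and could not be ordered. Against 13650 genes with at least 10 counts in every Ctrl library, whose median was 15.8 TPM, APOB fell at percentile 51.9, SERPINA1 at 47.7, FGG at 44.7 and CPS1 at 30.8, whereas SAA1 and SAA2 fell at 71.8 and 70.1. APOB, SERPINA1 and FGG thus stood near the middle of the expressed genes of this line, in Ctrl libraries that each held 0 counts of albumin. Order by length depends on which transcript is used. With the length of 1 reference transcript per gene, SAA2 rose to 56.3, FGG to 20.2 and CPS1 to 10.1 TPM, and APOB came to 13.5 TPM, below FGG.

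**Figure D1:**
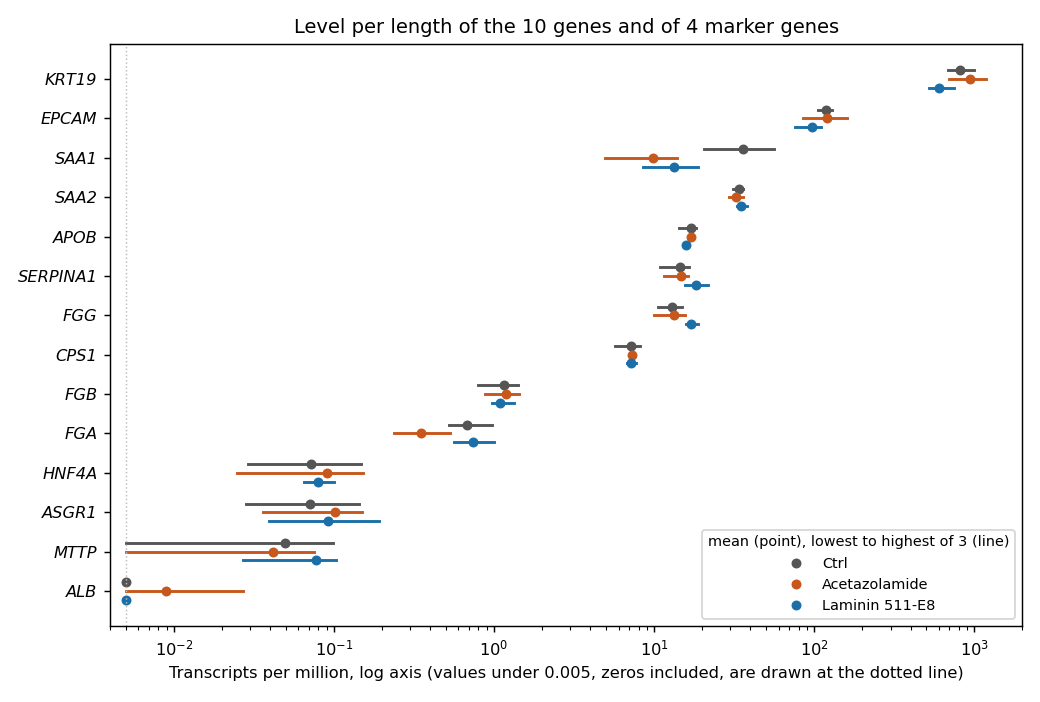
Level per length of the 10 genes and of the reference markers KRT19, EPCAM, ASGR1 and ALB in H69 cells, in TPM on a log axis. Points are group means and lines run from the lowest to the highest of 3 libraries. KRT19 and EPCAM lie at the top, and HNF4A, ASGR1, MTTP and ALB at the bottom. The Ctrl range of SAA1 (20.4 to 56.0) lies above those of Acetazolamide (4.90 to 14.0) and Laminin511-E8 (8.56 to 18.8), by as little as 20.4 against 18.8. The genes were chosen with these values known, and neither SAA1 difference from Ctrl passed the edgeR test. After TMM scaling, 2.1% and 3.96% of all tested genes were lower without overlap in these comparisons.

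APOB (ENSG00000084674, chr2:21001429-21044073, minus strand, GRCh38) was counted deeply and varied little. Its counts were 2536, 1423 and 1006 in Ctrl, 2704, 1935 and 1318 in Acetazolamide and 1336, 1630 and 2858 in Laminin511-E8. In CPM, these were 82.4, 77.2 and 80.3 in Ctrl, 77.6, 78.6 and 79.9 in Acetazolamide, and 76.4, 77.2 and 72.3 in Laminin511-E8. The 9 libraries thus lay within a narrow band, and the groups overlapped on this scale.

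MTTP (ENSG00000138823, chr4:99563761-99623999, plus strand), the partner that APOB needs for lipid loading in hepatocytes and enterocytes, was close to 0 in the same libraries. It had 5, 0 and 1 counts in Ctrl, 3, 3 and 0 in Acetazolamide and 3, 1 and 7 in Laminin511-E8. The 3 Ctrl libraries together held 6 counts of MTTP against 4965 of APOB, and pooled MTTP was at 0.0971 CPM with a 95% exact Poisson interval of 0.0356 to 0.211. The exons of MTTP overlap those of TRMT10A, a tRNA methyltransferase gene on the other strand with 2462 counts, and whether the counting used strand is something not given in the sources used here. Reads of TRMT10A could therefore stand among the 23 counts of MTTP, and reads from the overlap could have been left out of both.

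The other genes of lipoprotein assembly and export were uneven in level. Of 20 fixed genes, 13 had at least 10 counts in every library, led by P4HB, the small subunit of the MTTP complex and a general disulfide isomerase (409 ± 78.3 TPM in Ctrl), the sorting receptor SORT1 (175 ± 36.5 TPM), and the COPII coat genes SAR1A (107 ± 12.4 TPM) and SEC23B (77.5 ± 12.7 TPM). TM6SF2 had 0.252 ± 0.205 CPM and CIDEB 0.0181 ± 0.0313 CPM in Ctrl. Over all libraries together, 5 of the 20 had at most 3 counts. SURF4, a cargo receptor that cells in general express, was listed with 2 counts in all libraries, and its neighbour SURF1 with 1. A low count at this locus is therefore not read as a low level. Around HNF4A, 10 of 15 protein-coding genes within 500 kb had at least 10 counts in every library, and around MTTP 5 of 14. Around SURF4 it was 7 of 27, so such neighbours cannot tell a gene missed in counting from one at low level. Among 16 other apolipoproteins, 4 were detected in every library, with APOL1 at 65.8 ± 8.01, CLU at 15.8 ± 1.63, APOE at 9.34 ± 1.59 and APOC1 at 7.99 ± 1.64 TPM in Ctrl, and 7 had no count in any library.

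CPS1 (ENSG00000021826, chr2:210477682-210679107, plus strand) was steady as well. Its counts were 762, 415 and 328 in Ctrl (24.7, 22.5 and 26.2 CPM), 884, 578 and 422 in Acetazolamide (25.4, 23.5 and 25.6 CPM) and 414, 570 and 926 in Laminin511-E8 (23.7, 27.0 and 23.4 CPM). The 3 groups overlapped fully. Of 16 genes of the urea cycle and of ammonia handling, 13 were detected in every library. GLUD1, which releases ammonia from glutamate, was at 99.8 ± 19.7, the argininosuccinate synthase ASS1 at 62.2 ± 11.4, and the mitochondrial carriers SLC25A13 and SLC25A15 at 47.4 ± 10.1 and 43.2 ± 10.6 TPM in Ctrl. OTC, the enzyme that uses the product of CPS1, and ARG1, the liver arginase that closes the cycle, had 1 count each over all 9 libraries. ARG2, the arginase of other tissues, was present at 13.8 TPM in Ctrl, and NAGS, which makes the activator of CPS1, at 4.46 TPM.

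HNF4A (ENSG00000101076, chr20:44355700-44434596, plus strand) had 2, 2 and 4 counts in Ctrl, 2, 5 and 6 in Acetazolamide and 3, 5 and 6 in Laminin511-E8 libraries. These 35 counts are too few for a comparison, and HNF4A and MTTP did not enter the fit across genes. Of 28 genes of the wider hepatic factor network, 14 were detected in every library. The most abundant were XBP1 (95.7 ± 17.1 TPM in Ctrl), a regulator of secretory cells, the orphan receptors NR2F2 (56.9 ± 7.21 TPM) and NR2F6 (22.4 ± 5.66 TPM), and ATF5 (18.0 ± 0.99 TPM). FOXA2, a pioneer factor of liver and bile duct, stood at 16.2 TPM in Ctrl.

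**Figure D2:**
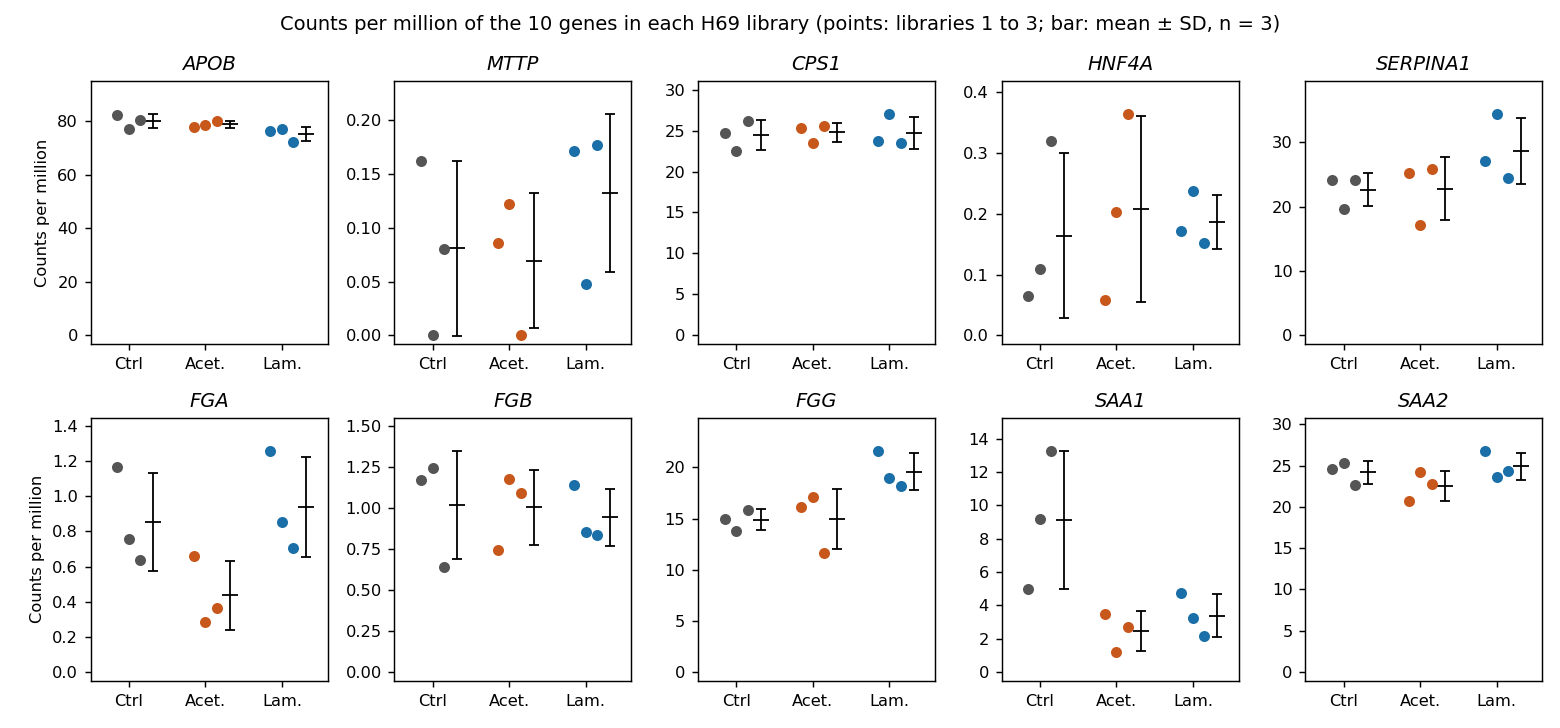
CPM of each of the 10 genes in each library; points are libraries 1 to 3 of a group, from left to right, and the bar beside them is the mean ± SD. The vertical axes differ between panels and their labels start at 0; APOB, CPS1 and SAA2 are nearly level over the groups, FGG and SERPINA1 have their highest libraries under laminin 511-E8, and the SAA1 libraries of Ctrl are spread from 4.97 to 13.2.

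SERPINA1 (ENSG00000197249, chr14:94376747-94390693, minus strand) had 741, 362 and 302 counts in Ctrl (24.1, 19.6 and 24.1 CPM), 881, 421 and 426 in Acetazolamide (25.3, 17.1 and 25.8 CPM) and 474, 725 and 966 in Laminin511-E8 (27.1, 34.3 and 24.4 CPM). Each laminin library was above each Ctrl library, by as little as 24.4 against 24.1 CPM. Of 18 other serpins, 9 were detected in every library, among them the collagen chaperone SERPINH1 (52.6 ± 8.92 TPM in Ctrl) and the intracellular SERPINB6 (43.9 ± 6.74 TPM) and SERPINB1 (40.5 ± 3.79 TPM), and 6 had no count at all. Of 45 other secreted liver proteins, 6 were detected in every library. Protein S (PROS1, 74.0 ± 8.41 TPM), the retinol carrier RBP4 (59.7 ± 11.1 TPM), vitronectin (VTN, 14.0 ± 4.10 TPM) and the C1 inhibitor SERPING1 (12.2 ± 0.753 TPM) led this group, and 19 of the 45 had at most 3 counts over all libraries.

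**Figure D3:**
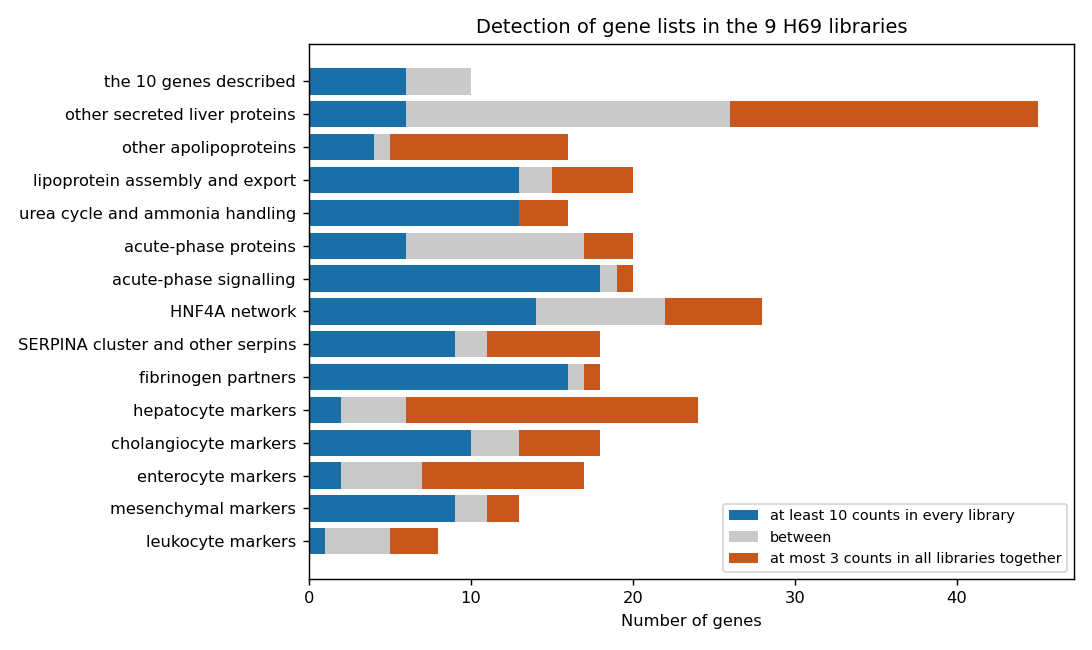
Number of genes in each fixed list that had at least 10 counts in every one of the 9 libraries (blue), at most 3 counts over all libraries together (orange), or values in between (grey). Of 24 hepatocyte markers 2 are blue and 18 orange, whereas 13 of 16 urea cycle and ammonia genes and 16 of 18 fibrinogen partners are blue. SURF4, CFB and TNF stand among the orange genes, and their low counts are not read as low levels.

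The fibrinogen chains, which lie side by side on chromosome 4, were far from equal in transcript level. On GRCh38, FGB (ENSG00000171564) spans chr4:154562956-154571086 on the plus strand, FGA (ENSG00000171560) chr4:154583126-154590766 and FGG (ENSG00000171557) chr4:154604134-154612967, both on the minus strand. FGG had 461, 255 and 199 counts in Ctrl, 563, 420 and 192 in Acetazolamide and 378, 401 and 719 in Laminin511-E8. FGB had 36, 23 and 8 counts in Ctrl, 26, 29 and 18 in Acetazolamide and 20, 18 and 33 in Laminin511-E8. FGA had 36, 14 and 8 counts in Ctrl, 23, 7 and 6 in Acetazolamide and 22, 18 and 28 in Laminin511-E8. Per length of all annotated exons, FGG exceeded FGA 14.1 to 27.3 times in Ctrl, 26.9 to 65.9 times in Acetazolamide and 18.9 to 28.2 times in Laminin511-E8. FGG exceeded FGB 8.34 to 18.7 times in Ctrl, 8.02 to 16.3 times in Acetazolamide and 14.2 to 16.8 times in Laminin511-E8. With the length of 1 reference transcript per gene, a setting added after the data were seen, the excess of FGG over FGA was 26.8 to 52.0 times in Ctrl, 51.2 to 125 times in Acetazolamide and 35.9 to 53.7 times in Laminin511-E8, and that over FGB 12.4 to 27.9, 11.97 to 24.3 and 21.2 to 25.0 times. The excess of FGG was thus present in each of the 9 libraries with either length. None of the 50-base windows of FGA, FGB or FGG transcripts occurred in a transcript of another gene of GENCODE release 29. The rest of the genome was not searched, and how the reads were placed was not tested.

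Reference sequences in front of FGA and FGB are shown for the letters they hold. Any part of these letters in the levels was not tested. RefSeq (GRCh38.p14) gave the 250 bases before the start for 7 of the 10 genes, in 13 windows. APOB, SAA1 and SAA2 had no entry. On both strands, 4 short motifs were searched. The letters of a C/EBP site were TTGCNNAA. The letters of a HNF4 site were CAAAGTCCA. The letters of a FOXA site were TGTTTGC. The letters of a TATA box were TATAAA. The C/EBP and FOXA letters share a stretch, so that their matches could overlap, which those printed here do not. The parts of the FGA and FGB windows that no annotated exon covers are printed 5′ to 3′ on the strand of the gene, with motif matches in capitals.
FGA, chr4:154590767-154590992, minus strand: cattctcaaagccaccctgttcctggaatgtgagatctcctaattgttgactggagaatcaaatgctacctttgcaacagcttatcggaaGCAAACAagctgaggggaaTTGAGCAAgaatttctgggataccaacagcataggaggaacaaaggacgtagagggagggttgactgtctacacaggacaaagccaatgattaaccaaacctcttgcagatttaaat
FGB, chr4:154562730-154562955, plus strand: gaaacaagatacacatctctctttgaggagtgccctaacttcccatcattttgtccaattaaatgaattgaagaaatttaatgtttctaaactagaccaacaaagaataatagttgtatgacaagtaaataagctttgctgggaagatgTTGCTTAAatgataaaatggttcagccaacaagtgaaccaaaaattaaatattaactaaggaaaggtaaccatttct
In the FGA window, the FOXA letters began 160 and the C/EBP letters 141 bases before the start. FGB had 2 windows, of 2 annotated starts. In the one printed, the C/EBP letters began 101 bases before the start, and in the other the same letters began 132 bases before its start. A SERPINA1 window held the FOXA letters 108 bases before its start and a MTTP window those of the TATA box 227 bases before its start. The FGG window, which lies wholly in annotated exons and is not printed, held none of the 4 motifs, and neither did the 3 CPS1 windows or the 2 HNF4A windows. The C/EBP letters were present in 9.06% of 34943 promoter windows of the genome, those of FOXA in 3.24%, of the TATA box in 10.8% and of HNF4, which no window of the 10 genes held, in 0.326%. These are matches of letters in a reference, not bound sites.

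Of 18 fixed partners of fibrinogen (chaperones, receptors and clotting factors), 16 were detected in every library. The chaperones CALR (1291 ± 15.7 TPM in Ctrl), HSPA5 (516 ± 68.5 TPM) and PDIA3 (402 ± 19.3 TPM) led this list, followed by F3, the tissue factor that starts clotting, at 161 ± 21.7 TPM.

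SAA1 and SAA2 must be read with their likeness in mind. They lie on chromosome 11 (GRCh38), SAA1 (ENSG00000173432) from 18266174 to 18269977 on the plus strand and SAA2 (ENSG00000134339) from 18239223 to 18248643 on the minus strand. Over 366 coding bases the reference transcripts ENST00000356524.8 (SAA1) and ENST00000256733.8 (SAA2) of GENCODE release 29 differed at 11 bases (97.0% identical), and the longest identical run was 186 bases. The first differing base was coding base 43, and the other 10 lie in coding bases 215 to 338, printed here 5′ to 3′ with the differing bases in capitals to show where a read can tell the genes apart.
SAA1: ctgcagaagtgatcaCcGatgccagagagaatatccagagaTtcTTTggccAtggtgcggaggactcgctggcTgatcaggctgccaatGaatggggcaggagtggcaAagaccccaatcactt
SAA2: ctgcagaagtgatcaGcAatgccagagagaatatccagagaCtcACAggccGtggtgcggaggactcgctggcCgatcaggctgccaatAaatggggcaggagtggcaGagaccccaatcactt
Of the distinct 50-base windows of SAA1 transcripts, 402 of 862 (46.6%) also occurred in another gene, and of SAA2 transcripts 460 of 2240 (20.5%). The handling of reads that match both genes is not given in the sources used here, and each count is an uncertain share of the pair. SAA4, the constitutive family member, had 111 counts in all libraries, the pseudogene SAA3P had 2 and the read-through SAA2-SAA4 had 0.

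SAA2 followed the depth of the libraries, while SAA1 did not. SAA2 had 756, 467 and 284 counts in Ctrl (24.5, 25.3 and 22.7 CPM), 720, 595 and 375 in Acetazolamide (20.7, 24.2 and 22.7 CPM) and 468, 499 and 963 in Laminin511-E8 (26.8, 23.6 and 24.4 CPM). SAA1 had 153, 169 and 166 counts in Ctrl (4.97, 9.16 and 13.2 CPM), 122, 29 and 45 in Acetazolamide (3.50, 1.18 and 2.73 CPM) and 83, 68 and 86 in Laminin511-E8 (4.75, 3.22 and 2.18 CPM). All Ctrl values lay above all treated values, although the lowest Ctrl library at 4.97 CPM was close to the highest treated library at 4.75 CPM. Within Ctrl and within Laminin511-E8 the SAA1 level ran opposite to the total count (30794026, 18443033 and 12529867 in Ctrl, 17483007, 21114841 and 39518899 in Laminin511-E8), whereas the deepest Acetazolamide library had the highest level of its group; the part of depth in these values was not tested.

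SAA1 took a mean of 26.8 ± 10.0% (SD, n = 3) of the SAA1 and SAA2 counts in Ctrl, 9.95 ± 4.97% in Acetazolamide and 11.8 ± 3.44% in Laminin511-E8. In the Ctrl libraries the share was 16.8% (95% Wilson interval 14.5 to 19.4), 26.6% (23.3 to 30.1) and 36.9% (32.6 to 41.4). In the treated libraries it ran from 4.65% to 15.1%. The 3 Ctrl intervals did not touch each other, so these replicates of one group differed by more than counting error. The lowest Ctrl library and the highest libraries of both treated groups had overlapping intervals.

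**Figure D4:**
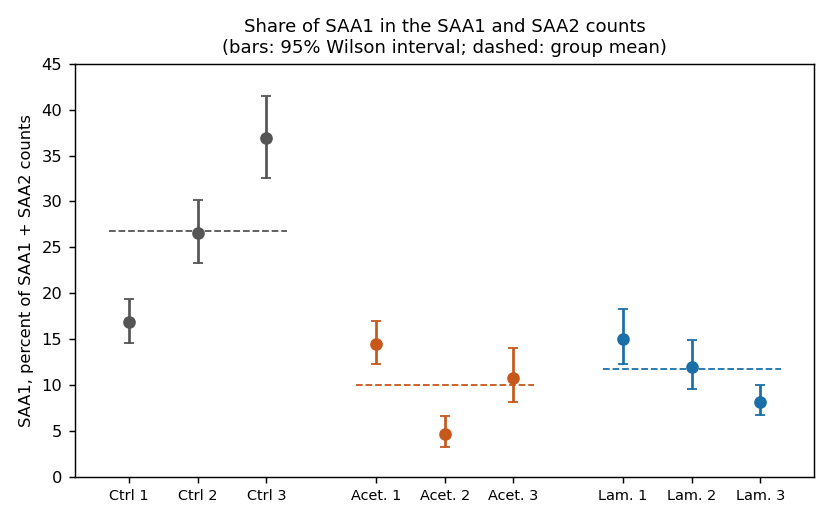
SAA1 as a percent of the SAA1 and SAA2 counts in each library, with 95% Wilson intervals for counting error and dashed group means of 26.8, 9.95 and 11.8%. The Ctrl libraries spread from 16.8 to 36.9%, and the treated libraries lie between 4.65 and 15.1%.

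Each treatment was compared with Ctrl, and the treatments with each other, by edgeR's quasi-likelihood test over 15997 genes, with Benjamini-Hochberg adjustment over all of them. Both treatment comparisons use the same Ctrl libraries. Of the 10 genes, 8 passed the filter on low counts. With acetazolamide, 0 of the 8 had an adjusted p under 0.05, as did 0% of all tested genes, and 2 of the 8 and 291 of all genes (1.82%) had an unadjusted p under 0.05. With laminin 511-E8 against Ctrl, 0 of the 8 and 0% of all genes passed, and 2 of the 8 and 444 genes (2.78%) had an unadjusted p under 0.05. With laminin 511-E8 against acetazolamide, 0 of the 8 and 0% of all genes passed, and 2 of the 8 and 344 genes (2.15%) had an unadjusted p under 0.05. By DESeq2, 1 of the 8 passed with acetazolamide (0.0438% of all genes), and 0 of the 8 in each of the other comparisons (0.131% and 0.119% of all genes). With a correction for GC content in edgeR, 0 of the 8 passed in any comparison, beside 0%, 0.356% and 0.178% of all genes.

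The widest differences were those of SAA1. It was at a log2 fold change of -1.91 (SE 0.45, edgeR adjusted p = 0.999) with acetazolamide, a fold of 0.266, and at -1.46 (SE 0.44, edgeR adjusted p = 1.00), a fold of 0.362, with laminin 511-E8. Neither passed the test. DESeq2 gave -1.94 with an adjusted p of 0.0319 for acetazolamide, and adjusted p-values over all alternatives ran from 0.0319 to 1.00; with laminin 511-E8 the lowest was 0.282. Without Acetazolamide library 2, which had 29 counts, the edgeR value was -1.57, and without Ctrl library 3, with the highest SAA1 level, it was -1.61 for acetazolamide and -1.16 for laminin 511-E8. In Ctrl library 2, mitochondrial transcripts took 16.2% of counts against 9.43 to 11.8% in the other libraries, and the values without it were -1.85 and -1.40. Between the treatments, SAA1 differed by 0.45 (SE 0.46).

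FGG was 0.37 (SE 0.16) higher on the log2 scale with laminin 511-E8 than in Ctrl and 0.42 (SE 0.16) higher than with acetazolamide, folds of 1.29 and 1.33. Its levels were 14.97, 13.8 and 15.9 CPM in Ctrl, 16.2, 17.1 and 11.6 CPM in Acetazolamide and 21.6, 19.0 and 18.2 CPM in Laminin511-E8, so the laminin libraries lay above all others. SERPINA1 was at 0.31 (SE 0.18) and 0.36 (SE 0.17) in the same comparisons, and without Laminin511-E8 library 2, its highest, at 0.19 against Ctrl. Neither gene passed the test, with edgeR adjusted p-values of 1.00.

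FGA was at -1.02 (SE 0.41) with acetazolamide against Ctrl, at 0.01 (SE 0.39) with laminin 511-E8 against Ctrl, and at 1.03 (SE 0.40) between the treatments, all with edgeR adjusted p-values near 1. Its levels were 1.17, 0.759 and 0.638 CPM in Ctrl, 0.660, 0.284 and 0.364 CPM in Acetazolamide, and 1.26, 0.852 and 0.709 CPM in Laminin511-E8. The highest Acetazolamide library, at 0.660 CPM, lay between the Ctrl libraries and below every laminin library. Without Acetazolamide library 1 the log2 value against Ctrl was -1.52, and without Ctrl library 1 it was -0.73. These values rest on 6 to 36 counts per library.

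The remaining genes moved little. APOB was at -0.08 (SE 0.09) with acetazolamide and -0.11 (SE 0.09) with laminin 511-E8, CPS1 at -0.04 (SE 0.11) and -0.01 (SE 0.11), and SAA2 at -0.17 (SE 0.13) and 0.01 (SE 0.13). FGB was at -0.15 (SE 0.33) and -0.20 (SE 0.33), at 8 to 36 counts per library. Between the treatments, these 4 genes lay between -0.05 and 0.18.

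After TMM scaling, APOB and SAA1 were lower without overlap in Acetazolamide than in Ctrl (2 of 8 lower against 2.1% of all genes, and 0 of 8 higher against 3.21%). In Laminin511-E8 against Ctrl, SERPINA1 and FGG were higher (2 of 8 against 4.69%) and APOB and SAA1 lower (2 of 8 against 3.96%). In Laminin511-E8 against Acetazolamide, SERPINA1, FGA and FGG were higher (3 of 8 against 3.01%) and 0 of 8 lower (3.11%). The genes were chosen with these values known, so nothing is read from the counts. By plain CPM the groups overlapped for APOB in both comparisons with Ctrl, and for SERPINA1 in Laminin511-E8 against Acetazolamide, where the lowest Laminin511-E8 library (24.4 CPM) lay below 2 Acetazolamide libraries (25.3 and 25.8 CPM).

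**Figure D5:**
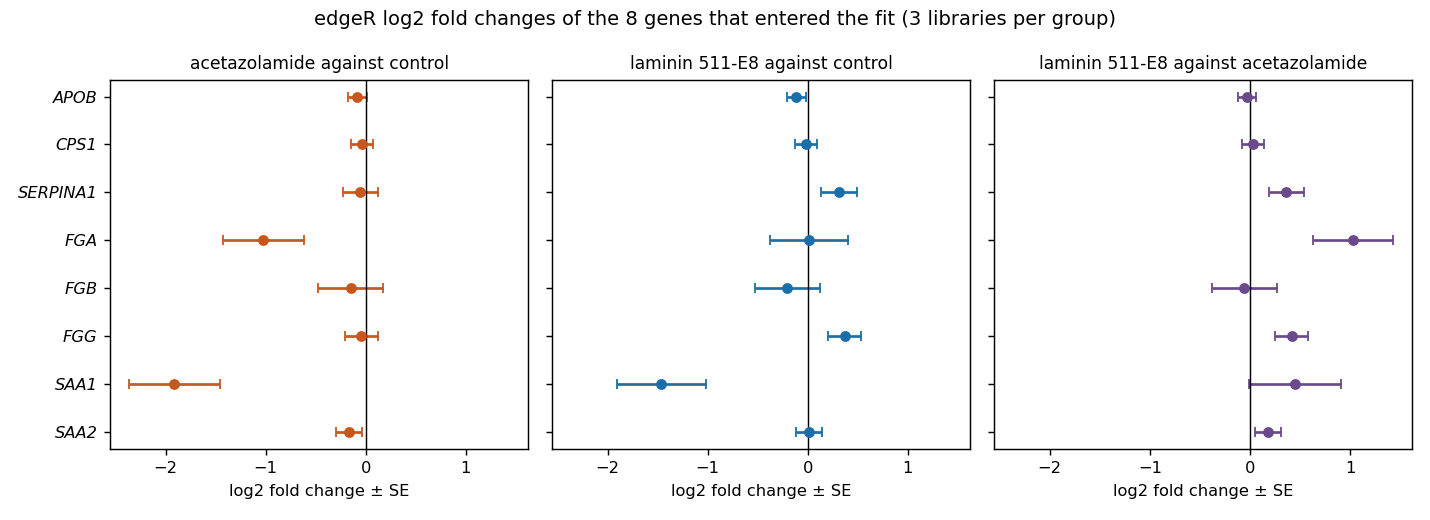
Log2 fold changes with standard errors from edgeR for the 8 genes that entered the fit, in the 3 comparisons (3 libraries per group). SAA1 lies at -1.91 and -1.46 against Ctrl, FGA at -1.02 under acetazolamide and 1.03 between the treatments, and APOB and CPS1 lie near 0 throughout; 0 of the 8 passed the adjusted threshold in any comparison.

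Acute-phase genes other than serum amyloid A were uneven in level, and none of them passed the test. Of 20 other acute-phase proteins, 6 were detected in every library, with the metal-binding MT2A at 598 ± 83.8, complement C3 at 495 ± 85.3, the mitochondrial dismutase SOD2 at 84.1 ± 18.1 and ceruloplasmin (CP) at 55.1 ± 7.45 TPM in Ctrl, whereas CRP, a classical hepatocyte acute-phase protein, had 2 counts in the Ctrl libraries together. Of 20 genes of IL-6 and IL-1 signalling, 18 were detected in every library, including the receptor chain IL6ST (302 ± 47.1 TPM), CEBPB (163 ± 40.6 TPM), NFKBIA (122 ± 16.1 TPM) and the glucocorticoid receptor NR3C1 (109 ± 19.3 TPM). CFB of the acute-phase list and TNF of the signalling list were listed with 0 counts. Both lie in the major histocompatibility region of chromosome 6, where the widely expressed TAPBP had only 28 counts in all libraries. As with SURF4, such low counts are not read as low levels. With laminin 511-E8 against Ctrl, the median log2 fold change was 0.32 over 10 tested acute-phase proteins and 0.02 over 19 tested signalling genes, beside -0.0037 over all tested genes, and with acetazolamide the medians were 0.06 and -0.02 beside 0.01. Single signalling genes lay away from that median. With laminin 511-E8 against Ctrl, 3 of the 19 were higher and 1 lower at an unadjusted p under 0.05, beside 2.78% of all tested genes. With acetazolamide against Ctrl, 2 of the 19 were higher and 0 lower, beside 1.82% of all tested genes. These 2 were IL6 at a log2 fold change of 0.67 (SE 0.28) and CEBPB at 0.37 (SE 0.14). None of the 19 passed the test in either comparison. IL6, the cytokine itself, was at 0.804 ± 0.222 CPM in Ctrl and 2.70 ± 0.265 CPM in Laminin511-E8, from 48 and 211 counts in all (log2 1.75, SE 0.27, edgeR adjusted p = 0.269). SOCS3, a feedback inhibitor of IL-6 signalling, had a log2 fold change of 0.81 (SE 0.19), the receptor chain OSMR 0.24 (SE 0.09) and the IL-1 receptor antagonist IL1RN -0.55 (SE 0.20). In each of the other lists, too, 0 genes had an edgeR adjusted p under 0.05 in any of the 3 comparisons. With laminin 511-E8 against Ctrl, the medians were 0.17 over 8 tested secreted liver proteins, -0.19 over 4 apolipoproteins, -0.03 over 13 lipoprotein assembly genes, -0.04 over 13 urea cycle and ammonia genes, -0.07 over 14 genes of the HNF4A network, 0.06 over 10 serpins and 0.07 over 17 fibrinogen partners. Over the cell type lists they were -0.17 for 10 tested cholangiocyte markers, 0.21 for 2 hepatocyte markers and -0.15 for 3 enterocyte markers. For 9 mesenchymal markers the median was -0.0098, and for 2 leukocyte markers 0.03. The 10 cholangiocyte markers ran from -0.48 to 0.02. The 4 most abundant of them were CD24 at -0.43 (SE 0.20), KRT7 at -0.10 (SE 0.18), KRT19 at -0.45 (SE 0.20) and EPCAM at -0.32 (SE 0.22).

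Markers of other cell types were read in the same libraries. Of 17 enterocyte markers, 2 were detected in every library, the peptidases ANPEP (172 ± 30.4 TPM in Ctrl) and DPP4 (41.1 ± 4.19 TPM), and 9 had no count; VIL1 and SLC15A1 were at 0.211 and 0.180 TPM. Of 13 mesenchymal markers, 9 were detected, including VIM at 134 ± 18.7 and SPARC at 77.0 ± 12.99 TPM, with a summed level of 833 to 910 CPM in Ctrl, 804 to 969 CPM in Acetazolamide and 931 to 1043 CPM in Laminin511-E8. Of 8 leukocyte markers, 1 was detected (CD14, 7.75 ± 2.38 TPM in Ctrl). The part of such cells in the levels above was not tested, and in bulk RNA fewer cells that express a gene and less RNA per cell cannot be told apart.

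Across the 9 libraries, Pearson correlations of log2 CPM between pairs of the 8 tested genes ran from -0.63 (CPS1 with FGB) to 0.71 (FGB with SAA2), with 0.67 for CPS1 with SERPINA1, 0.51 for FGA with FGG and 0.16 for SAA1 with SAA2. These describe 9 libraries that share depth and treatment. The gene with the most similar pattern among 15996 others was RAPGEF2 for APOB (r = 0.90), GATD3 for CPS1 (r = 0.97; this gene has a near-identical copy, so its counts are uncertain), FAF2 for SERPINA1 (r = 0.96), TPD52L1 for FGG (r = 0.94), MAML1 for SAA1 (r = 0.94) and ZSWIM6 for SAA2 (r = 0.96), and in none of these 6 cases was it another of the 10 genes.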

How the data were processed

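RNA from 9 libraries of H69 cells was measured by sequencing. The values deposited by the authors are raw read counts by Ensembl gene. The submitters' notes list HTSeq 0.11.0 among the tools, beside HISAT2 2.2.1, Trimmomatic 0.39 and FastQC 0.11.9, and GRCh38 as the build. Release of the annotation, use of strand and handling of reads with several matches: not given in the sources used here. Symbols, exon lengths and GC content came from the reference tables and GENCODE release 29. CPM used the total count, and TPM the length of all annotated exons of a gene.

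Groups followed the sample titles. The comparisons used R 4.3.3 and edgeR 4.0.16 (filterByExpr, TMM, robust quasi-likelihood fit, all 9 libraries, 15997 genes, Benjamini-Hochberg threshold 0.05), which differs from the methods of the study in that those state only a log2 transformation and no test for these libraries. P-values measure the spread between the libraries of a group, described as biological replicates. Alternatives were DESeq2 1.42.0, limma 3.58.1 (voom), RLE scaling, other filters, the 6 libraries of a comparison alone, a replicate block, a GC correction (loess span 0.3, 15737 genes) and fits without each library in turn. Correlations used log2 CPM with a prior count of 2. Pairs were taken among the 8 tested genes, and the most similar of all tested genes was sought for the 6 genes whose count was 10 or more in each library.

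The genes, the lists and the tests were chosen with earlier results of these data known. Named are the 10 genes, ALB, ASGR1, EPCAM and KRT19, of each list up to 4 genes of the highest mean TPM in Ctrl and up to 4 that passed, the gene most similar to each of the 6 genes above and genes that overlap or resemble them. TM6SF2, CIDEB, SURF1, SURF4, OTC, ARG1, ARG2, NAGS, FOXA2, CRP, CFB, TNF, TAPBP, IL6, SOCS3, OSMR and IL1RN were named after their values were seen. A few list genes are not reported here. Python 3.11.15, pandas 2.3.3, SciPy 1.17.1 and matplotlib 3.10.9 were used for levels and plots.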

Additional observations from a re-analysis of the deposited data

How the results depend on the processing

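The replicate numbers did not pair the libraries (correlations of same-numbered deviations from -0.65 to 0.24, 2 of 9 pairs over 0.1), and with the replicate number as a block 0, 0 and 0 genes passed in the 3 comparisons, and 0 of the 8 genes described. For acetazolamide against Ctrl, laminin 511-E8 against Ctrl and laminin 511-E8 against acetazolamide, 7, 21 and 19 of all genes passed by DESeq2, against 0 by edgeR, 3, 5 and 2 without a filter on low counts, 0, 56 and 28 with the GC correction, and 0, 2 and 3 with the GC correction and the block together. Of the 8 genes, 1 (SAA1 with acetazolamide, log2 -1.94) passed by DESeq2.

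Of 426 alternative values of the 8 genes' fold changes, 396 kept direction and call, 29 changed sign and 1 gained a call, and 15 of 24 combinations of gene and comparison had no change of sign. Those that changed sign had main log2 values between -0.15 and 0.03. With the GC correction, and with it and the block, CPS1 became 0.031 and 0.031 with acetazolamide, 0.0052 and 0.0046 with laminin 511-E8 and -0.026 and -0.026 between treatments, FGG became 0.12 and 0.12 with acetazolamide, and SAA2 -0.032 and -0.026 with laminin 511-E8. FGA with laminin 511-E8 became -0.052 by voom and -0.011 with the GC correction, and SAA2 -0.0011 without a filter. Leaving out 1 library each, values ran with acetazolamide from -0.14 to 0.11 for SERPINA1, -0.38 to 0.051 for FGB and -0.15 to 0.12 for FGG, with laminin 511-E8 from -0.058 to 0.0095 for CPS1, -0.25 to 0.31 for FGA and -0.066 to 0.090 for SAA2, and between treatments from -0.022 to 0.050 for CPS1 and -0.25 to 0.10 for FGB. The cause of these changes was not tested. SAA1 stayed between -2.31 and -1.57 with acetazolamide and between -1.81 and -1.16 with laminin 511-E8 under the alternatives run. With the length of 1 transcript, the Ctrl level was 13.5 TPM for APOB, 10.1 for CPS1, 20.2 for FGG and 56.3 for SAA2, and the mean Ctrl ratio of FGG to FGA was 38.9 in place of 20.5 (chosen after seeing the data). Depth limits MTTP and HNF4A, with at most 7 and 6 counts in a library, and FGA and FGB, with at most 36.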
